A study of Mus musculus with 10 samples.

Results

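ATG4 proteases and ATG8 proteins are the enzymes and tags of autophagosome formation, and their transcripts were followed here in the brains of Slc20a2-deficient mice given FTY720 or placebo. The group was chosen by gene name and holds 10 of the 54532 genes in the count table: the proteases Atg4a, Atg4b, Atg4c and Atg4d, the LC3 genes Map1lc3a and Map1lc3b, the GABARAP genes Gabarap, Gabarapl1 and Gabarapl2, and Atg3. All 10 passed the filter on low counts, which left 17665 genes to test. The 10 genes were proposed with the difference between FTY720 and placebo already known, so their values in that comparison are given as a description, and no p-value of theirs in it is used as support.

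RNA was sequenced from part of the perfused brain of each of 10 mice, the rest of which was fixed, all homozygous for the Slc20a2 tm1a(EUCOMM)Wtsi allele (Slc20a2-HO). Slc20a2 encodes a phosphate transporter, and mice that lack it develop brain calcification. From the age of 1.5 months and for 12 weeks, 6 mice received FTY720 (fingolimod, a modulator of sphingosine 1-phosphate receptors) at 0.5 mg/kg by intraperitoneal injection, and 4 received the vehicle DMSO alone. Controls thus carried the same allele, and no wild type library was used here. Mouse names hold a group letter (F or P), a digit (1 or 3) and a number, for example F1-622. The labels do not say what the digit means, and it was unevenly spread: 3 FTY720 mice had digit 1 and 3 had digit 3, against 1 and 3 placebo mice.

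Libraries held 14772745 to 18303981 assigned counts. The digit separated the libraries by brain region markers. Summed over 6 cerebellar granule cell genes, the level was 105 to 122 CPM (counts scaled to a library of 1000000) in digit 1 mice and 907 to 1061 CPM in digit 3 mice, and summed over 8 cortex and hippocampus neuron genes it was 866 to 1035 CPM against 637 to 714 CPM. Microglia and macrophage markers summed to 376 to 486 CPM with digit 1 and 256 to 372 CPM with digit 3. Over 8 general neuron markers the sum was 5574 to 6346 CPM with digit 1 and 5308 to 5544 CPM with digit 3. Of these 8, 4 had a positive log2 fold change by digit and 4 a negative one. Oligodendrocyte markers summed to 5733 to 6645 CPM under FTY720 and 6518 to 7609 CPM under placebo, and endothelial markers to 166 to 274 CPM and 151 to 174 CPM. The first digit of the mouse number followed sex: Ddx3y, on the Y chromosome, was at 64.7 to 112 CPM in the 6 mice numbered from 6 and at 0 to 0.0598 CPM in the 4 numbered from 9. Slc20a2 itself was at 6.31 to 14.8 CPM under FTY720 and at 9.43 to 17.0 CPM under placebo, which without a wild type does not check the allele. By digit it was at 6.31 to 9.43 CPM with digit 1 and at 11.5 to 17.0 CPM with digit 3. Within digit 3 it was at 12.9 to 14.8 CPM under FTY720 and at 11.5 to 17.0 CPM under placebo. In such bulk brain tissue, fewer cells of a type and less RNA per cell cannot be told apart.

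Autophagy encloses cytoplasm in a double membrane and delivers it to lysosomes, and neurons, which do not divide, depend on it to clear proteins and organelles. An ATG8 protein is made with a short tail after a glycine. An ATG4 protease, whose active site holds a cysteine, cuts that tail off, and the exposed glycine is then joined to the lipid phosphatidylethanolamine by ATG7, which acts like an E1, and ATG3, which acts like an E2. ATG4 can also cut ATG8 off the membrane again. LC3 proteins are linked mainly to growth of the membrane and GABARAP proteins to later steps.

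The coding ends of the 5 ATG8 transcripts show the site at which ATG4 acts. They were read from the principal GENCODE M21 transcripts (GRCm38, the build of the files), run from 5′ to 3′ on the plus strand within a single coding exon, and end at the stop codon, and capitals mark the glycine codon.

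Map1lc3a: tacgcctcccaagaaaccttcGGCttctga
Map1lc3b: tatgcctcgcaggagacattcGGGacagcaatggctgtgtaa
Gabarap: tacagtgatgaaagcgtctatGGTctgtga
Gabarapl1: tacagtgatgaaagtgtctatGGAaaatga
Gabarapl2: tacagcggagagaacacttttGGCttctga

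They lie at chr2:155277608-155277637, chr8:121596729-121596770, chr11:69994495-69994524, chr6:129541138-129541167 and chr8:111952376-111952405. The glycine was codon 120 in both LC3 genes and codon 116 in the 3 GABARAP genes. Map1lc3b had 5 codons after it before the stop, and the other 4 genes had 1. Map1lc3a and Map1lc3b were identical at 77.5% of aligned coding bases, and Gabarap and Gabarapl1 at 74.9%. The longest run of bases shared by any pair of the ATG4 coding sequences or any pair of the ATG8 coding sequences was 17.

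The 4 proteases are shown around the codon of the catalytic cysteine, in capitals, in the same build and direction.

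Atg4a: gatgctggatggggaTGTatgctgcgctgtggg
Atg4b: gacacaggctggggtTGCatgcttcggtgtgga
Atg4c: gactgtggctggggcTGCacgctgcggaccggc
Atg4d: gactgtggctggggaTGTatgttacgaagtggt

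These stretches lie in coding exons at chrX:140990178-140990210, chr1:93773790-93773822, chr4:99218120-99218152 and chr9:21267002-21267034. The cysteine was codon 77 in Atg4a, 74 in Atg4b, 111 in Atg4c and 144 in Atg4d. Coding identity between ATG4 pairs ran from 63.6% (Atg4b and Atg4c) to 66.8% (Atg4b and Atg4d).

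Levels between genes were compared as CPM per kilobase of the gene length in the table. Among the proteases, Atg4c stood highest at 14.6 ± 1.40 CPM per kilobase (SD, n = 10), followed by Atg4b at 7.16 ± 0.529. Atg4d, at 3.70 ± 0.621, and Atg4a, at 2.90 ± 0.747, overlapped in range. As shares of the summed ATG4 level, Atg4c took 51.4% ± 3.05, Atg4b 25.3% ± 2.06, Atg4d 13.1% ± 2.36 and Atg4a 10.2% ± 2.28. Atg4b is known for the broadest activity on ATG8 proteins, and in these brains its transcript was not the most abundant by this measure. The gap between Atg4c and Atg4b depended on the length used, an alternative chosen after seeing the data: with the principal transcript, which is 4173 bases for Atg4b against 8278 bases in the table, the shares were 40.8% ± 2.80 and 37.8% ± 2.59. With that length Atg4b stood above Atg4c in F1-918 (42.1% against 38.5%) and P1-623 (38.8% against 36.2%), and below it in the other mice.

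The ATG8 genes were far more abundant. Their summed level was 509 ± 92.4 CPM per kilobase against 28.3 ± 1.76 for the ATG4 genes (SD, n = 10). Gabarapl1 led in all 10 mice with a share of 41.0% ± 2.83, and Map1lc3a came next with 26.1% ± 3.34. Gabarap held 14.5% ± 1.26, Gabarapl2 12.3% ± 1.88 and Map1lc3b 6.11% ± 0.686. The order of the lower genes was not fixed. With principal transcript lengths, 2532 bases for Map1lc3b in place of 7517, Map1lc3b rose to 14.1% ± 1.37 beside 13.2% ± 1.84 for Gabarapl2 and 15.5% ± 1.26 for Gabarap. Gabarapl1 and Map1lc3a still led, with 35.5% ± 2.61 and 21.7% ± 3.04.

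**Figure D1:**
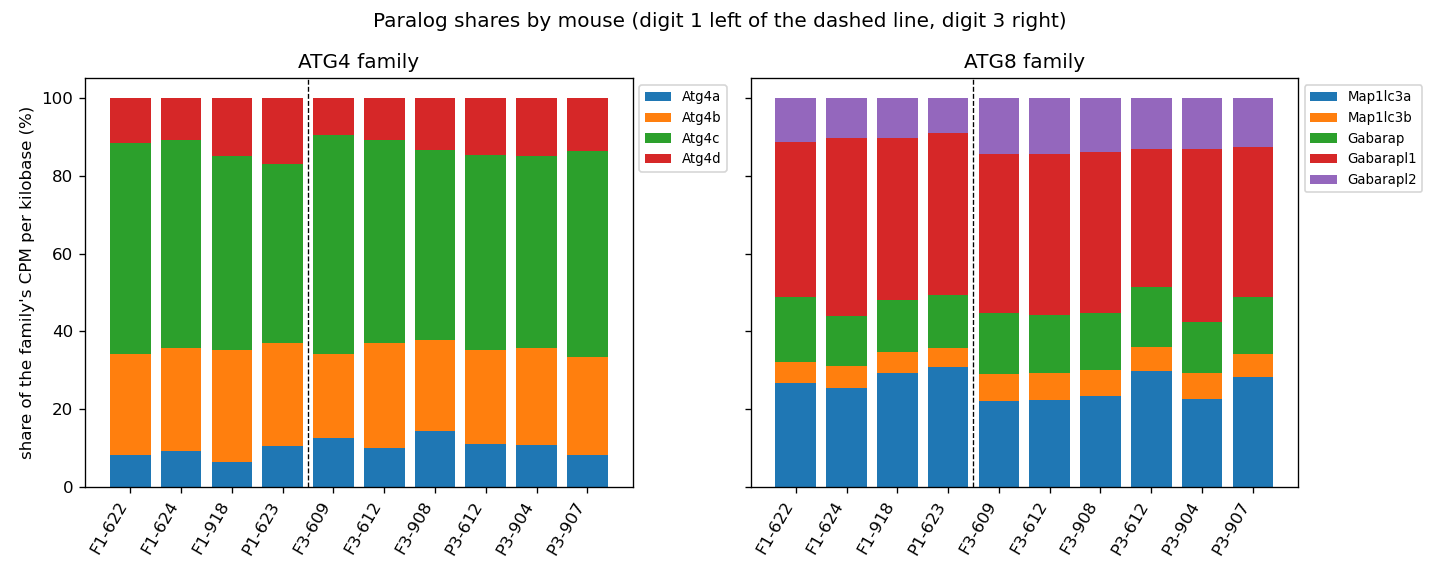
Stacked bars show each paralog's share, in percent, of the summed CPM per kilobase (table gene length) of the ATG4 family (left) and the ATG8 family (right) in each of the 10 mice, with digit 1 mice left of the dashed line. Atg4c held the largest ATG4 share and Gabarapl1 the largest ATG8 share in every mouse, and the top segment of the ATG8 bars, Gabarapl2, ran from 9.15% to 11.3% with digit 1 and from 12.5% to 14.5% with digit 3.

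FTY720 against placebo asks whether the drug changed these transcripts in the brain. Of the 10 genes, 1, Atg4d, passed an unadjusted p of 0.05 in edgeR's quasi-likelihood test and was lower under FTY720, where 2.61% of all 17665 genes passed. None of the 10 and none of the 17665 genes passed a Benjamini-Hochberg adjusted p of 0.05 in edgeR, DESeq2 or limma-voom, where 461 genes had passed the unadjusted threshold in edgeR. The other 9 genes had log2 fold changes between -0.24 (Map1lc3a) and 0.06 (Atg4c). The median over the 10 genes was -0.02, beside -0.003 over all genes tested.

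Atg4d lies on chromosome 9 (21265293 to 21277772, plus strand). Its level under FTY720 was 21.3, 22.1 and 28.7 CPM in the mice with digit 1 (F1-622, F1-624 and F1-918) and 20.5, 23.7 and 28.7 CPM in those with digit 3 (F3-609, F3-612 and F3-908). Under placebo it was 32.2 CPM in P1-623 and 29.8, 31.9 and 30.1 CPM in P3-612, P3-904 and P3-907. The groups did not overlap, which held for 0.804% of all genes tested, and the gap between the nearest mice, at 28.7 and 29.8 CPM, was small. The log2 fold change was -0.36 ± 0.12 (SE), a level 22.0% lower.

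The lower Atg4d level was present with both digits. In digit 3 mice alone, 3 against 3, the log2 fold change was -0.33 ± 0.14, and in digit 1 mice the 3 FTY720 mice averaged 0.43 lower on the log2 scale than the only placebo mouse, with no replicate of the latter. Within the FTY720 group, the 4 mice numbered from 6 had 20.5 to 23.7 CPM and both mice numbered from 9 had 28.7 CPM. In the mice numbered from 6 the log2 fold change was -0.49, and in those numbered from 9 it was -0.11. That difference between the number series was 0.39 ± 0.21 (95% interval -0.07 to 0.85) and did not pass the adjusted threshold (adjusted p = 0.615, edgeR), so the size of the drop was not shown to differ between them. This split was chosen after the values were seen.

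**Figure D2:**
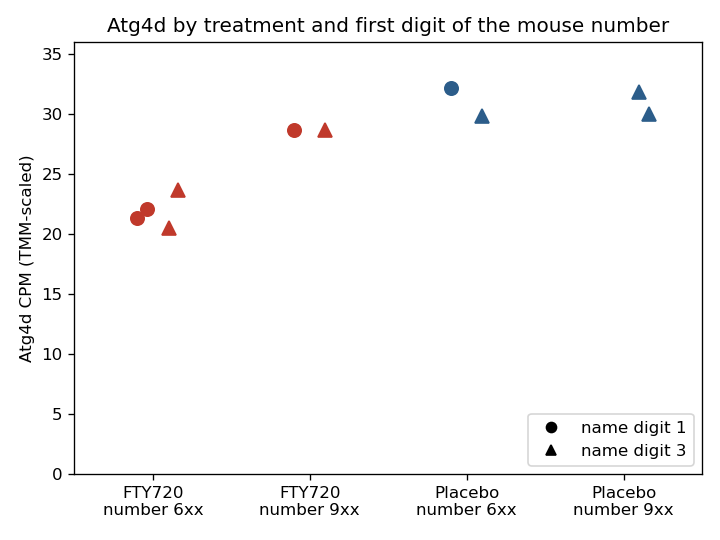
Points show Atg4d in CPM on an axis from 0 for each mouse, by treatment and by the first digit of the mouse number, with circles for name digit 1 and triangles for name digit 3. The 4 FTY720 mice numbered from 6 sit between 20.5 and 23.7, the pair numbered from 9 at 28.7, and the placebo mice between 29.8 and 32.2.

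Markers of other cell types were set beside Atg4d, and their summed ranges overlapped between the groups over all mice. Within digit 3 the oligodendrocyte, progenitor and endothelial sums did not overlap, while those of the other lists did. Oligodendrocyte markers summed to 5778 to 5946 CPM under FTY720 and 6681 to 7609 CPM under placebo. Progenitor markers summed to 245 to 298 CPM and 334 to 391 CPM, and endothelial markers to 207 to 274 CPM and 163 to 174 CPM. The share of all genes that separate in this split of 3 against 3 mice is not given here. Of the oligodendrocyte markers 10 of 10 had a negative log2 fold change under FTY720, 4 of them past an unadjusted p of 0.05, where 1.57% of all genes were lower, of the progenitor markers 4 of 6 had one, 2 of them past it, and of the endothelial markers 6 of 7 had a positive one, 3 of them past it, where 1.04% of all genes were higher. None passed an adjusted p of 0.05 in edgeR. With the summed oligodendrocyte level in the model, the Atg4d log2 fold change was -0.29 ± 0.21, and with the summed endothelial level it was -0.32 ± 0.17, and in neither fit did it pass the unadjusted threshold. These fits were also added after the values were seen. Reads from the other strand could enter Atg4d, since Kri1 overlaps it by 4316 bases there. Kri1 had 116 to 199 counts per mouse, a log2 fold change of -0.08 ± 0.15 and a Pearson r with Atg4d of 0.21 over the 10 mice. The 5 protein-coding genes most like Atg4d across the 10 mice were Kcnh2 (r = 0.94), Acsbg1 (0.93), Sema6c (0.93), Arhgef19 (0.91) and Sppl2b (0.91), all with the same libraries behind them.

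The other proteases showed values near 0. Atg4b, at 52.7 to 66.5 CPM under FTY720 and 56.1 to 63.2 CPM under placebo, had a log2 fold change of 0.00 ± 0.10, and Atg4c one of 0.06 ± 0.11. Atg4a, at 4.56 to 11.3 CPM under FTY720 and 6.72 to 8.43 CPM under placebo, had one of 0.00 ± 0.24, with a 95% interval from -0.51 to 0.52. The ratio of Atg4d to Atg4b per kilobase was 0.405 to 0.570 under FTY720 and 0.542 to 0.647 under placebo. Those ranges overlapped, with F3-908 at the top of the FTY720 group, and the means differed by -0.37 on the log2 scale.

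Among the ATG8 genes, Map1lc3a had the lowest value, with a log2 fold change of -0.24 ± 0.24 over all mice. The digit was unevenly spread over the groups, and with it as a covariate the log2 fold change was -0.43 and passed an unadjusted p of 0.05 in edgeR. Other fits were added after the values were seen. It was -0.05 ± 0.40 with summed oligodendrocyte markers as a covariate and turned to 0.27 ± 0.24 with summed endothelial markers. It was -0.57 in the mice numbered from 6 and 0.23 in those numbered from 9, a difference of 0.80 ± 0.46 that did not pass the adjusted threshold (edgeR adjusted p = 0.615). Among the mice numbered from 9 the digit was not balanced over the treatment, since the only digit 1 mouse there, F1-918 at 199 CPM, received FTY720. Of the digit 3 mice in that series, F3-908 at 127 CPM lay between P3-904 at 113 CPM and P3-907 at 166 CPM. The part of the digit in the value of 0.23 was not tested. Map1lc3a was at 206, 153 and 199 CPM in the FTY720 mice with digit 1 and 99.6, 108 and 127 CPM in those with digit 3. It was at 228 CPM in the placebo mouse with digit 1 and 194, 113 and 166 CPM in the others. Groups overlapped over all mice and within digit 3, where F3-908 stood above P3-904. Within digit 3 the log2 fold change was -0.50 ± 0.19, and Map1lc3a and Atg4d were the 2 of 10 genes past an unadjusted p of 0.05, where 7.27% of 17656 genes passed. Markers of other cell types moved in the same contrast. Past an unadjusted p of 0.05, 5 of 10 oligodendrocyte, 3 of 6 oligodendrocyte progenitor, 2 of 8 microglia and macrophage, 2 of 8 neuron and 1 of 8 cortex and hippocampus neuron markers were lower, where 4.49% of all genes were. In the other direction 5 of 7 endothelial and 2 of 6 cerebellar granule cell markers were higher, where 2.78% were. Their part in the Map1lc3a and Atg4d values within digit 3 was not tested. The count of 2 genes fell to 0 without F3-609, without P3-612 or without P3-907, and to 1 without F3-612, when Atg4a alone passed and was higher under FTY720. It stayed at 2 without F3-908, with the same genes, and without P3-904, when Gabarap passed in place of Atg4d.

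The remaining ATG8 genes and Atg3 had log2 fold changes of -0.05 ± 0.11 (Map1lc3b), -0.02 ± 0.18 (Gabarap), -0.01 ± 0.16 (Gabarapl1), -0.03 ± 0.12 (Gabarapl2) and -0.07 ± 0.14 (Atg3). Their 95% intervals reached from -0.41 to 0.38 at most. No gene in the table passed an adjusted p of 0.05 in edgeR, DESeq2 or limma-voom for a difference in the drug effect between digits, and 345 of them (1.95%) passed an unadjusted one in edgeR. The only placebo mouse with digit 1 has no replicate and is assumed in this fit to vary like the other groups, so the lack of calls says little. Atg4a had a difference of 0.70 ± 0.35. Its FTY720 levels were 5.60, 6.90 and 4.56 CPM with digit 1 and 10.1, 7.91 and 11.3 CPM with digit 3. Under placebo it was at 7.40 CPM with digit 1 and 6.72 to 8.43 CPM with digit 3.

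**Figure D3:**
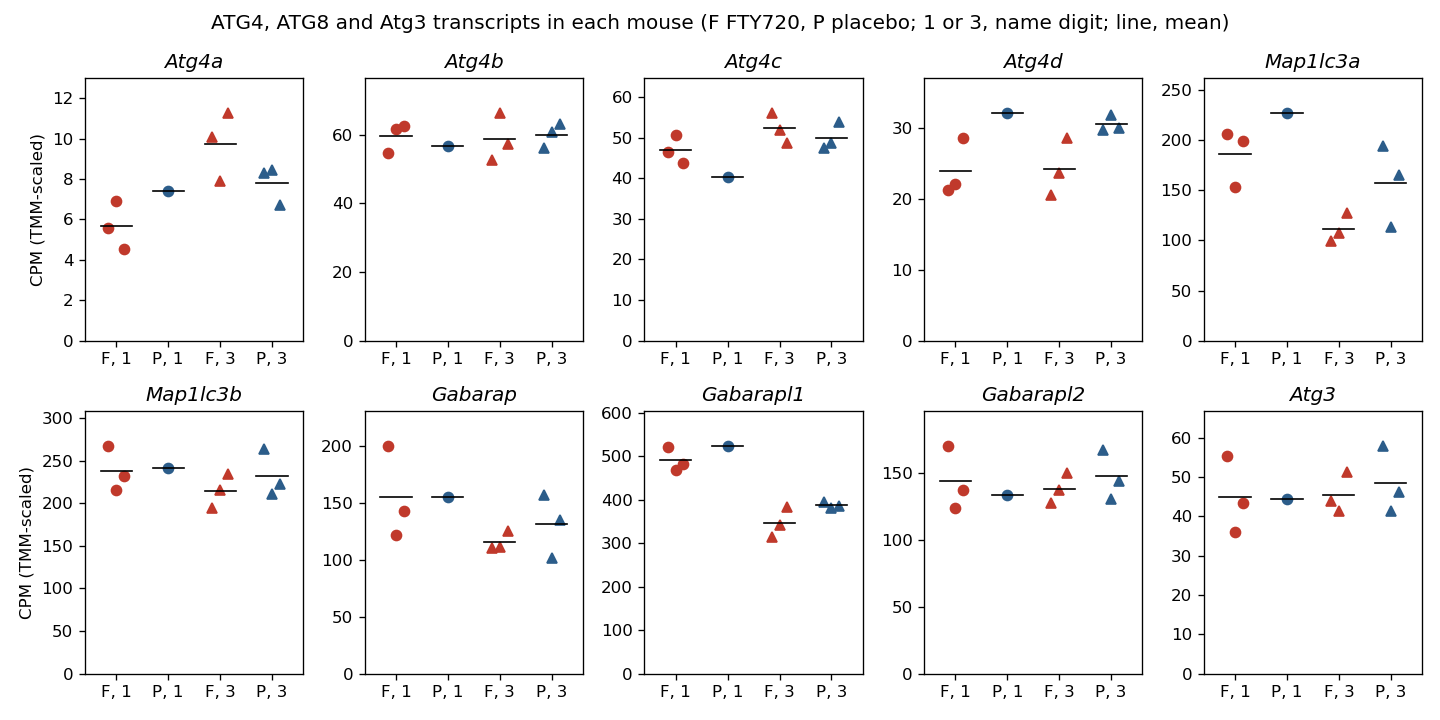
Each panel shows 1 gene in CPM on a linear axis from 0, with a point per mouse and a line at the mean for FTY720 (F, red) and placebo (P, blue) mice with name digit 1 (circles) or 3 (triangles). Atg4d is lower in the F columns, between 20.5 and 28.7 against 29.8 and 32.2, and Gabarapl1 is lower in the digit 3 columns, between 313 and 395 against 468 and 524.

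The digit comparison sets 6 digit 3 mice against 4 digit 1 mice with treatment in the model, and was not used to choose the genes. Gabarapl1 and Map1lc3a were lower and Atg4a was higher in digit 3 mice, so that 3 of 10 genes passed an adjusted p of 0.05, near the 28.4% of all genes tested that did. The share alone therefore says nothing particular about these genes. The median log2 fold change over the 10 genes was -0.004, beside -0.01 over all genes tested, with 5 genes above 0 and 5 below.

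Gabarapl1, a GABARAP gene, was at 522, 468, 481 and 524 CPM in the digit 1 mice F1-622, F1-624, F1-918 and P1-623. In digit 3 mice it was at 313, 340.5 and 383 CPM under FTY720 and 395, 380 and 385 CPM under placebo. All digit 3 mice stood below all digit 1 mice, which held in either direction for 14.2% of genes tested. The log2 fold change was -0.48 ± 0.083, a level 28.5% lower (edgeR adjusted p = 0.00156), and it passed without each mouse in turn and in the 6 FTY720 mice alone.

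Map1lc3a was at 153 to 228 CPM with digit 1 and 99.6 to 194 CPM with digit 3, a log2 fold change of -0.67 ± 0.15 or 37.2% lower (edgeR adjusted p = 0.00650). Here the groups overlapped, because P3-612 and P3-907 stood above F1-624. Atg4a was at 4.56 to 7.40 CPM and 6.72 to 11.3 CPM, with a log2 fold change of 0.54 ± 0.18, or 1.45-fold higher (edgeR adjusted p = 0.0440). The Atg4a call was lost without any single FTY720 mouse except F1-624, and without P3-904, with adjusted p from 0.0525 to 0.114, and its log2 fold change stayed at or above 0.42.

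Gabarap had 122 to 201 CPM with digit 1 and 102 to 157 CPM with digit 3, and its log2 fold change of -0.36 ± 0.15 did not pass the adjusted threshold (edgeR adjusted p = 0.0854). Atg4c (0.20 ± 0.092) did not pass either. Map1lc3b (-0.12 ± 0.10), Gabarapl2 (0.01 ± 0.11), Atg4b (0.01 ± 0.094), Atg4d (-0.02 ± 0.12) and Atg3 (0.05 ± 0.14) had values whose 95% intervals included 0 and stayed between -0.34 and 0.35.

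**Figure D4:**
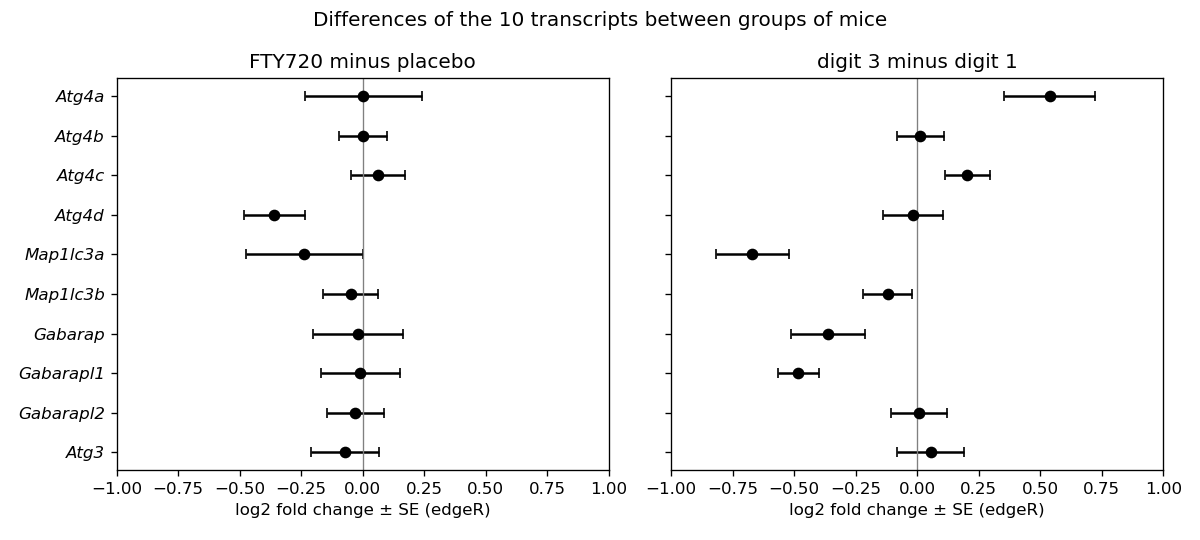
Points give the edgeR log2 fold change of each of the 10 genes, and bars give its SE, for FTY720 minus placebo (left, a description, since the genes were chosen with this contrast known) and digit 3 minus digit 1 (right). On the left Atg4d stands at -0.36, and on the right Map1lc3a at -0.67, Gabarapl1 at -0.48 and Atg4a at 0.54 passed an adjusted p of 0.05.

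Paralog use differed between the digits within the ATG8 family. The ratio of Gabarapl1 to Gabarapl2 per kilobase was 3.54 to 4.53 with digit 1 and 2.73 to 3.36 with digit 3, with no overlap. Their mean log2 ratios differed by -0.47 (two-sided exact permutation test over 210 splits, p = 0.00476, the smallest it can give; adjusted over 3 ratios, 0.0143). Alone, Gabarapl1 had a log2 fold change of -0.48 and Gabarapl2 one of 0.01, so this ratio largely repeats the Gabarapl1 difference. The ratio of Map1lc3a to Map1lc3b was 4.52 to 6.01 and 3.18 to 4.74, overlapping, and differed by -0.47 on the log2 scale (exact permutation p = 0.0238; adjusted, 0.0357). Without F1-622, F1-918, F3-609, F3-612, F3-908, P1-623 or P3-904 the latter had an exact p from 0.0595 to 0.0952. The ratio of Atg4d to Atg4b did not differ beyond its spread between digits (0.07 on the log2 scale, exact permutation p = 0.695; adjusted, 0.695).

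The summed ATG8 level was 591 ± 62.5 CPM per kilobase with digit 1 (SD, n = 4) and 454 ± 63.3 with digit 3 (n = 6). Within that sum the share of Map1lc3b was 5.12% to 5.63% with digit 1 and 5.96% to 7.02% with digit 3, and that of Gabarapl2 was 9.15% to 11.3% and 12.5% to 14.5%, so neither overlapped. Shares of Gabarapl1, Map1lc3a and Gabarap did overlap. In CPM per kilobase Map1lc3b was at 28.7 to 35.6 with digit 1 and 25.9 to 35.1 with digit 3. Gabarapl2 was at 53.2 to 73.3 and 54.7 to 72.0, so the levels of both overlapped. A share also moves with the other genes in the sum, of which Gabarapl1 and Map1lc3a were lower with digit 3. In CPM, 14.2% of all genes tested did not overlap between the digits, and no such figure is given for shares. The summed ATG4 level was 26.5 ± 1.18 and 29.5 ± 0.735 CPM per kilobase. The cerebellar granule, cortex and hippocampus, general neuron and microglia marker sums changed with the digit as given above, and their part in these differences was not tested.

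**Figure D5:**
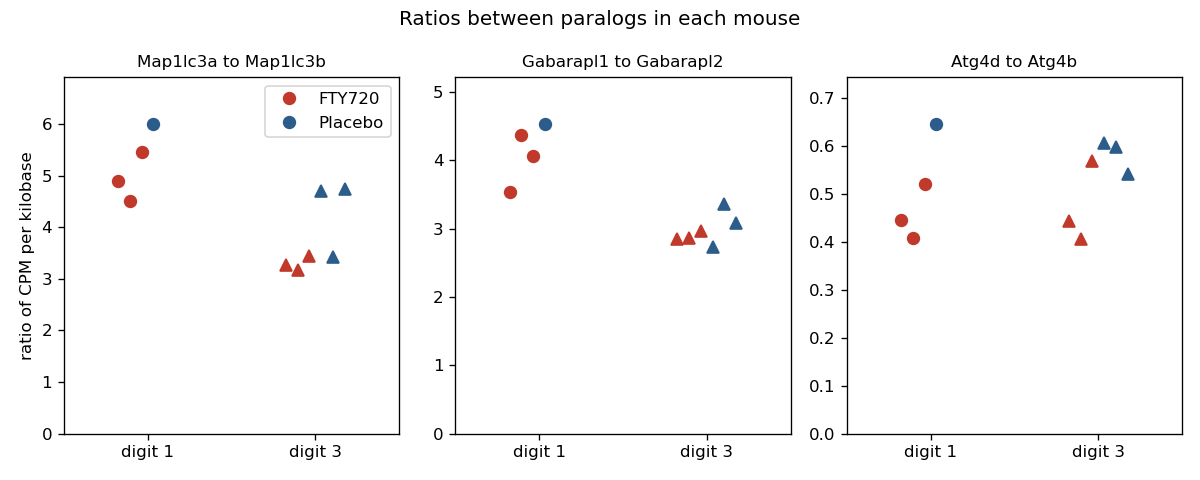
Points give, on axes from 0, the ratio of CPM per kilobase between paralogs in each mouse with name digit 1 (circles) or 3 (triangles), colored by treatment. Gabarapl1 to Gabarapl2 separates the digits (3.54 to 4.53 against 2.73 to 3.36), Map1lc3a to Map1lc3b overlaps between them, and Atg4d to Atg4b ran from 0.405 to 0.647 with no digit difference past the test.

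Other autophagy genes were counted from lists of 56 genes, all of which passed the filter. Under FTY720, 1 of 56 was higher at an unadjusted p of 0.05 (Snap29, a SNARE of fusion with the lysosome, 0.24 ± 0.11) and 0 were lower, where 1.04% and 1.57% of all genes were. Their median log2 fold change was 0.07, beside -0.003 over all genes tested, and 43 of 56 were positive, beside 8718 of 17665. By digit, 5 of 56 were higher and 7 lower at an adjusted p of 0.05, where 13.9% and 14.4% of all genes were, and the median was 0.002. Atg7, the E1-like enzyme upstream of Atg3, was lower in digit 3 mice (-0.34 ± 0.099; edgeR adjusted p = 0.0238). In the initiation complex Rb1cc1, a scaffold, was higher (0.48 ± 0.11) and Atg101 was lower (-0.71 ± 0.16). Atg9b, a lipid scramblase, was lower (-0.69 ± 0.15). Among cargo receptors, which bind ATG8 proteins, Tex264, a receptor for the endoplasmic reticulum, was lower (-0.72 ± 0.12), as was Sqstm1 (-0.53 ± 0.11). Over that list of 12, however, 2 genes were higher and 2 lower, 9 had a positive log2 fold change and the median was 0.08, and the higher genes were Ccpg1 (1.42 ± 0.34) and Fundc1 (0.30 ± 0.10), named after their values were seen. In the lysosome fusion list Vps18 (-0.51 ± 0.098) and Ykt6 (-0.35 ± 0.10) were lower, and the transcription factors Mitf (0.41 ± 0.12) and Foxo3 (0.31 ± 0.093) were higher. Over the whole lists, 6 of 13 fusion genes and 2 of 5 transcription factors had a positive log2 fold change. The medians were -0.04 and -0.005.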

How the data were processed

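Gene counts, deposited by the authors, came from paired-end reads aligned to GRCm38. The submitters' processing notes name fastp, HISAT2 2.0.5 and featureCounts 1.5.0-p3. The strand setting of the counting is not given in the sources used here. Apart from Kri1 over Atg4d, Thap4 overlapped Atg4b by 3365 bases and Zcchc14 overlapped Map1lc3b by 58, both on the other strand. Gm20388 overlapped Map1lc3b by 8400 bases on the same strand and had 0 counts in every mouse. Over Gabarapl1 lay 1700101I11Rik (658 bases, other strand) and Gm44243 (692 bases, same strand). The part of these genes in the member counts was not tested. FPKM values, also deposited by the authors, scale the same counts by gene length and depth. Counts were filtered by filterByExpr, scaled by TMM and tested with edgeR 4.0.16 (R 4.3.3) by the quasi-likelihood test, with Benjamini-Hochberg adjustment over all genes tested and thresholds of 0.05. CPM use TMM-scaled library sizes. Log ratios of CPM per kilobase were tested by exact permutation. Alternatives used DESeq2 1.42.0, limma 3.58.1 (voom, and log2 of FPKM plus 0.1 or 1), other scalings, filters and covariates, and each mouse left out. Mouse columns were matched to samples by title. On simulated counts with 200 genes changed by 1 log2 unit, 186 were recovered for treatment over 17397 genes and 180 for digit over 17415 genes, with 14 and 11 false calls. The counts simulated for treatment held no digit effect, unlike the real ones. Their recovery therefore does not give the power of the treatment test on these data.

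The members, gene lists and tests were chosen with earlier results of these data known. Genes named beyond the members were Slc20a2, genes overlapping a member, other autophagy genes past an unadjusted p of 0.05 by treatment, for each of their lists up to 2 genes with the smallest adjusted p by digit, and the 5 most like Atg4d. Ddx3y, Ccpg1 and Fundc1 were named outside this rule, after their values were seen. The labels name each library as a separate mouse.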

Additional observations from a re-analysis of the deposited data

Results flagged for a closer look

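Within each treatment group and each digit, the highest and lowest mouse of each of the 10 genes was compared with the rest by Dixon's test, 40 groups of values in all. In 2 of them a mouse stood apart, and about 5% of groups do so by chance. Gabarap in F1-622, at 201 CPM, stood above the other FTY720 mice, the next of which was at 144 CPM. Gabarapl1 in P1-623, at 524 CPM, stood above the other placebo mice, the next of which was at 395 CPM; P1-623 is the only placebo mouse with digit 1.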

How the results depend on the processing

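In the treatment comparison, leaving aside the fits within digit 3, Atg4d was lower under FTY720 in every alternative, from -0.49 to -0.11 on the log2 scale, and passed an unadjusted p of 0.05 in all but 3 of them, each added after seeing the data. These were the mice numbered from 9 and the fit with summed oligodendrocyte markers as a covariate, where 0 of 10 genes passed, and the fit with summed endothelial markers, where 1 passed (Gabarapl1, higher, 0.36). Map1lc3a turned from -0.24 to 0.27 with endothelial markers and to 0.23 in the mice numbered from 9, where the only digit 1 mouse was given FTY720. The count by treatment rose to 2, with Map1lc3a at -0.43, when the digit, or the digit and the first digit of the mouse number, were covariates, and was 1 to 1 without each mouse. Within digit 3 it was 0 with FPKM plus 0.1 and 0 with FPKM plus 1, and 0 to 2 without each mouse. The digit by treatment count stayed 0. The digit count stayed at 2 to 4 of 10. No share of all genes past the same threshold is given for these alternatives, so their counts cannot be set beside one. The log2 ratio of Map1lc3a to Map1lc3b was -0.58 in the FTY720 mice alone and -0.54 to -0.40 without each mouse, and that of Gabarapl1 to Gabarapl2 was -0.46 in the FTY720 mice alone, where 3 against 3 cannot give an exact p below 0.1. Without each mouse, the ratio of Atg4d to Atg4b moved from -0.027 to 0.19.

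Reversed signs by digit arose only among uncalled genes near 0. Atg4d was at 0.0036 with upper-quartile scaling, 0.0025 with at least 10 counts in every mouse, 0.073 without the treatment covariate and 0.035 in the FTY720 mice alone. Without a filter Atg4b was at -0.0073 and Gabarapl2 at -0.010. Atg4b was at -0.0027 with the first digit of the number added, and Gabarapl2 at -0.036 in the FTY720 mice alone. Without each mouse, the ranges were -0.041 to 0.065 (Atg4b), -0.10 to 0.072 (Atg4d), -0.059 to 0.10 (Gabarapl2) and -0.018 to 0.17 (Atg3). The causes were not tested. No paired analysis was possible because the groups share only 1 mouse number (612, in F3-612 and P3-612) and no other number in the labels. The treatment by digit fit could not be made without P1-623, the only placebo mouse with digit 1.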
